A study of Mus musculus with 8 samples.

Results

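The proteasome genes of the mouse ventral midbrain were compared between Ercc1 delta/+ and wild type samples. They were taken as every symbol that starts with Psm, a letter from a to g and a digit, which gave 49 of the 15359 genes in the table. Of these, 47 encode proteasome subunits, regulators or assembly factors, and the other two, Psmc3ip and Psme3ip1, encode proteins named for binding a proteasome protein and are kept apart. There were 4 samples of each genotype, all from the FVB:C57BL/6J background on a regular diet, and the mutants carried 1 delta allele of Ercc1, a DNA repair gene. RNA came from the ventral mesencephalic area, the midbrain region with the dopaminergic neurons of the substantia nigra. Age and sex are not given in the labels. Nor do these state whether samples of a genotype came from different mice, and the p-values below therefore reflect variation among libraries, some of which may be technical. The tissue was not sorted, so fewer cells of a type and less RNA per cell cannot be told apart.

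The proteasome is the protease that degrades ubiquitin-tagged proteins. Its 20S core is a barrel of alpha rings, which gate the entry, and beta rings, which hold the catalytic sites, and the 19S cap, made of a base with ATPases and a lid, recognises, unfolds and feeds in the substrate. Under interferon signals the catalytic beta subunits are replaced by those of the immunoproteasome, and dedicated chaperones assemble the core and the base. In neurons the proteasome clears damaged and misfolded proteins, and the transcription factor encoded by Nfe2l1 raises the transcription of its subunit genes together when proteasome activity falls short.

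With 1 row kept per gene, libraries held between 18303913 and 31261889 counts. Values are given in CPM, counts scaled to library size with TMM factors, and log2 fold changes compare Ercc1 delta/+ with wild type, so that negative values are lower in the mutants. Ercc1 itself, the targeted gene, stood at 10.2, 12.9, 11.1 and 11.9 CPM in Ercc1 delta/+ replicates 1 to 4 and 14.0, 15.3, 14.9 and 13.8 CPM in wild type replicates 1 to 4. Each mutant library lay below each wild type library (log2 fold change -0.34, SE 0.10, adjusted p = 0.113 by the edgeR quasi-likelihood test with Benjamini-Hochberg adjustment over all genes, which is the test behind every adjusted p below unless another is named). Of the 4 shallowest libraries 3 were mutant (replicates 1, 2 and 4) and the remaining one was wild type replicate 2, so depth and genotype overlap. All 8 dopaminergic marker genes were present, with sums of 220.7 to 459 CPM in Ercc1 delta/+ and 325 to 493 CPM in wild type. Choroid plexus markers (6 of 6 present, all with positive log2 fold changes) summed to between 71.6 and 1119 CPM in the mutants and between 58.7 and 151 CPM in wild type, and their part in the results below was not tested. Sums of the neuron, astrocyte, oligodendrocyte and endothelium markers overlapped between genotypes. Of 6 blood and lymphoid markers 2 were in the table, with sums of 103 to 155 CPM in the mutants and 146 to 194 CPM in wild type.

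Most transcripts of the proteasome stood slightly lower in Ercc1 delta/+, and no single member passed the test. Of 49 members 48 passed the filter on low counts, and 44 of these had a negative and 4 a positive log2 fold change, where 50.5% of the 15074 genes tested were negative. The median over the 48 was -0.20, or 0.871 times the wild type level, beside -0.0028 over all genes tested. Proteasome transcripts are short, and once the trend over length and GC content was offset, as described below, the median was -0.04. At an adjusted p of 0.05, 0 of 48 members were called in either direction, where 0.0464% of all genes were (7 genes, with 0.0332% lower and 0.0133% higher). At an unadjusted p of 0.05, 23 members were lower and 0 higher, against 9.65% and 9.08% of all genes. In 19 members every mutant library lay below every wild type library, and in 0 members the reverse held, against 6.88% and 5.17% of all genes tested. Other tools drew the line elsewhere: DESeq2 called 14 members lower, where it called 3.91% of genes lower, and the edgeR exact test called 7 lower, against 2.05%. The choice of libraries mattered too, since without Ercc1 delta/+ replicate 2 the quasi-likelihood test called 7 members (Psma1, Psma2, Psma3, Psmb1, Psmb6, Psmc6 and Psmd14) of 310 genes in all. Without that library 32 members were lower without overlap and 1 was higher, where 12.2% of genes were lower by that measure.

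**Figure D1:**
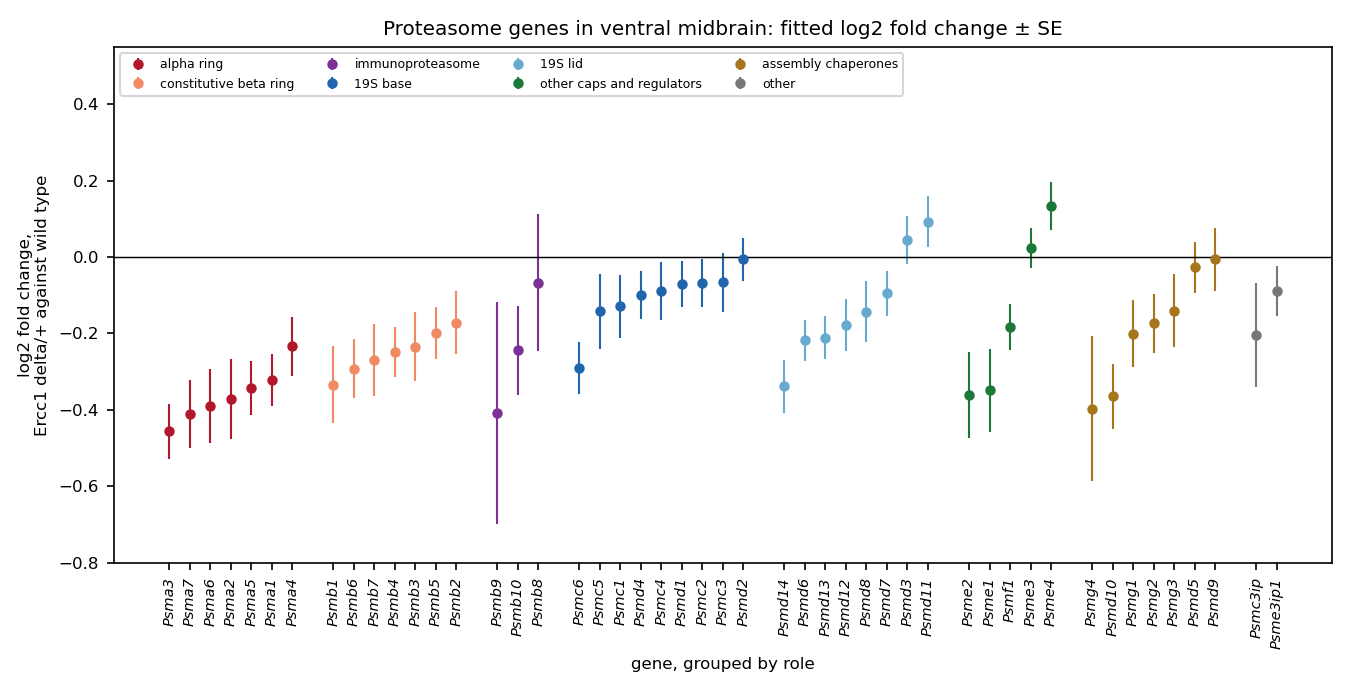
Each point is the fitted log2 fold change of a proteasome gene, Ercc1 delta/+ against wild type, with its standard error as the bar, and genes are grouped by role along the horizontal axis. As fitted, the alpha ring has the lowest median, with genes between -0.46 and -0.23. Most 19S base genes lie close to 0, and Psme4 and Psmd11 are the highest at 0.13 and 0.09.

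As fitted, the alpha ring genes had the lowest median of all roles. These subunits form the outer rings of the core and its gate. All 7 tested were negative (median -0.37, range -0.46 to -0.23), all 7 had an unadjusted p below 0.05, and in 6 of 7 the groups did not overlap. Over all genes tested 9.65% were lower at that p and 6.88% were lower without overlap. With the length and GC offset described below the ring's median was -0.18. With it 4 of 7 were lower at an unadjusted p below 0.05, against 5.07% of all genes. Psma3 stood at 30.5, 36.2, 36.7 and 36.9 CPM in Ercc1 delta/+ replicates 1 to 4 and 47.6, 47.8, 47.3 and 49.8 CPM in wild type replicates 1 to 4. Every mutant library lay below every wild type library, and replicate 1 was the lowest mutant. Its means were 35.1 ± 3.06 CPM in Ercc1 delta/+ and 48.1 ± 1.13 CPM in wild type (n = 4 libraries per genotype, ± SD), and it missed the threshold by a narrow margin (log2 fold change -0.46, SE 0.07, adjusted p = 0.0507). With the offset Psma3 was at -0.32 (adjusted p = 0.234). This value rests on an annotated transcript of 2846 bases, long for this ring, and would change if shorter forms dominate, which was not tested. Psma5 held 27.2, 32.1, 32.1 and 29.8 CPM in Ercc1 delta/+ and 39.5, 39.5, 37.1 and 37.8 CPM in wild type, again without overlap (log2 fold change -0.34, SE 0.07, adjusted p = 0.0670). Psma1 was found at 47.6, 55.1, 54.6 and 49.3 CPM in Ercc1 delta/+ and 63.7, 68.7, 63.2 and 63.0 CPM in wild type. The lowest wild type library for Psma1 was above the highest mutant (log2 fold change -0.32, SE 0.07, adjusted p = 0.0680). Psma7 was at -0.41 (SE 0.09), Psma6 at -0.39 (SE 0.10), Psma2 at -0.37 (SE 0.11) and Psma4 at -0.23 (SE 0.08), the last being the member of the ring whose groups overlapped. Psma8, the alpha subunit of the testis, did not pass the filter on low counts, with 1 to 8 counts in the mutant libraries and 7 to 16 in wild type. Psma5 has a pseudogene copy in the RefSeq annotation, and how reads that fit both were counted is not given in the sources used here.

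**Figure D2:**
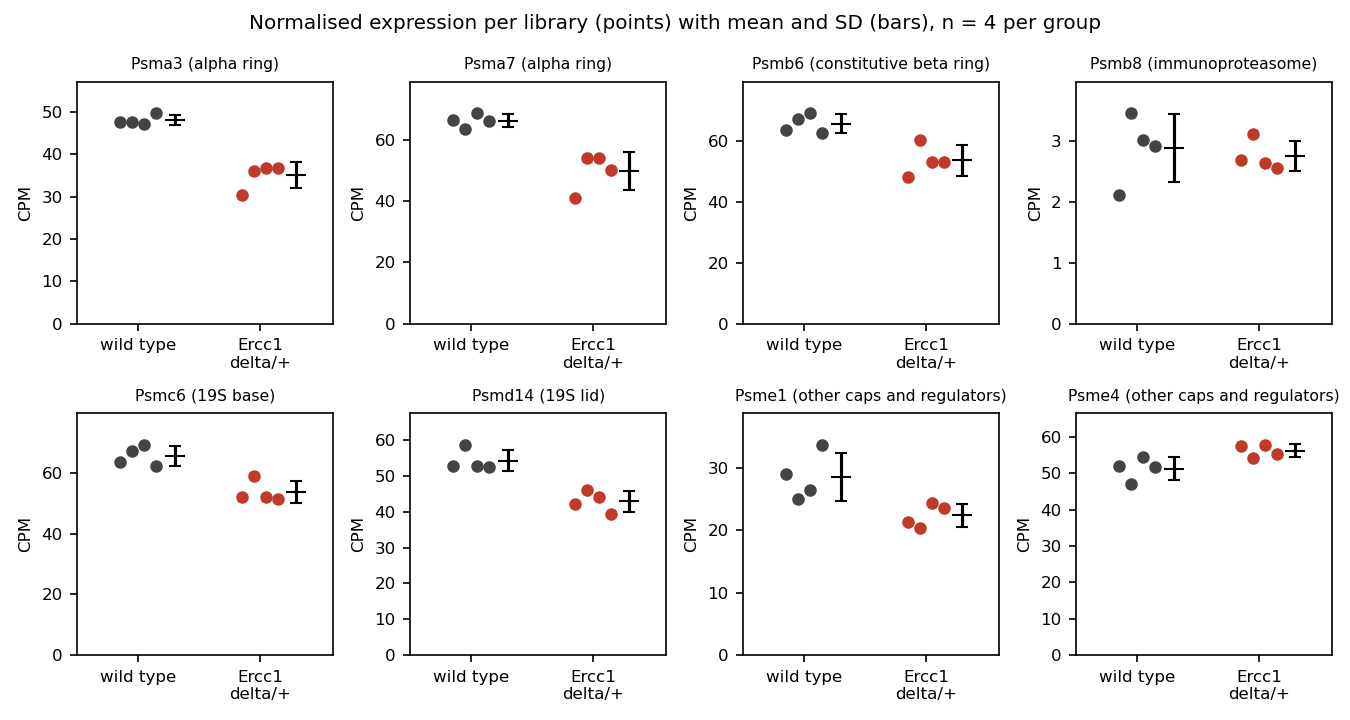
Points are the normalised expression (CPM, vertical axis from 0) of 8 proteasome genes in each of 4 wild type and 4 Ercc1 delta/+ libraries, and bars beside them are the mean and SD. Groups do not overlap for Psma3, Psma7, Psmb6, Psmc6, Psmd14 and Psme1, they overlap for Psmb8, and Psme4 lies slightly higher in the mutants with 1 mutant library inside the wild type range.

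The constitutive beta ring followed at smaller values. All 7 genes were negative (median -0.25, range -0.33 to -0.17), 6 had an unadjusted p below 0.05, and in 3 the groups did not overlap. Over all genes tested 9.65% were lower at that p and 6.88% were lower without overlap. With the length and GC offset described below the median was -0.09, with 6 genes negative and 1 positive. With it 0 were lower at an unadjusted p below 0.05, against 5.07% of all genes. Psmb6, which encodes the subunit with caspase-like activity, stood at 48.2, 60.4, 52.9 and 52.9 CPM in Ercc1 delta/+ replicates 1 to 4 and 63.5, 67.3, 69.1 and 62.6 CPM in wild type replicates 1 to 4. No mutant library reached the lowest wild type library (log2 fold change -0.29, SE 0.08, adjusted p = 0.100). Psmb7, with the trypsin-like activity, held 74.9, 97.4, 100.2 and 95.5 CPM in Ercc1 delta/+ and 109, 110.2, 118 and 106 CPM in wild type, and its groups were also separate (log2 fold change -0.27, SE 0.09, adjusted p = 0.175). Psmb5 carries the chymotrypsin-like activity and the site that proteasome inhibitor drugs bind. Its levels were 57.8, 67.1, 60.8 and 63.4 CPM in Ercc1 delta/+ and 72.6, 72.9, 74.8 and 65.7 CPM in wild type. Here Ercc1 delta/+ replicate 2 lay above wild type replicate 4, so the groups overlapped (log2 fold change -0.20, SE 0.07, adjusted p = 0.170). Of the subunits without catalytic activity, Psmb4 held 80.1, 94.0, 88.9 and 93.2 CPM in Ercc1 delta/+ and 108, 109, 104 and 102 CPM in wild type without overlap (log2 fold change -0.25, SE 0.07, adjusted p = 0.102). Psmb1 ran at 62.9, 89.9, 73.2 and 71.8 CPM in Ercc1 delta/+ and 94.9, 99.0, 89.2 and 92.2 CPM in wild type. In Psmb1 replicate 2 of the mutants lay within the wild type range (log2 fold change -0.33, SE 0.10, adjusted p = 0.132), as it did in Psmb3 (-0.24) and Psmb2 (-0.17). RefSeq lists pseudogene copies of Psmb5, Psmb6 and Psmb7, so their counts carry the same doubt as those of Psma5.

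Of the immunoproteasome genes, Psmb8 and Psmb9 were expressed at low levels in both genotypes and Psmb10 was higher, and no difference between the groups was resolved. Psmb8, the counterpart of Psmb5, stood at 2.69, 3.11, 2.64 and 2.56 CPM in Ercc1 delta/+ replicates 1 to 4 and 2.12, 3.46, 3.03 and 2.92 CPM in wild type replicates 1 to 4. The mutant range lay inside that of wild type, whose replicates 1 and 2 were the lowest and the highest of the 8 (log2 fold change -0.07, SE 0.18, adjusted p = 0.875). Psmb9, the counterpart of Psmb6, held 1.07, 0.509, 1.23 and 1.05 CPM in Ercc1 delta/+ and 1.08, 1.14, 1.77 and 1.22 CPM in wild type. Ercc1 delta/+ replicate 2 had the lowest level, and the SE was wide (log2 fold change -0.41, SE 0.29, adjusted p = 0.483). Psmb10, the counterpart of Psmb7, was the most abundant of the 3 at 19.9, 27.2, 23.0 and 23.9 CPM in Ercc1 delta/+ and 23.9, 26.8, 31.8 and 28.7 CPM in wild type, again with overlap (log2 fold change -0.24, SE 0.12, adjusted p = 0.296). The thymus form Psmb11 was not analysed here.

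Within each library the immunoproteasome genes were then set against their constitutive counterparts, a ratio that does not depend on scaling between libraries. Per kilobase of transcript, Psmb8 was at 2.23% ± 0.442 of Psmb5 in wild type and 2.44% ± 0.161 in Ercc1 delta/+ (± SD over 4 libraries). Psmb9 reached 1.16% ± 0.241 of Psmb6 in wild type and 1.09% ± 0.402 in the mutants. Psmb10 reached 22.2% ± 2.15 and 22.7% ± 1.89 of Psmb7. The share was lowest for Psmb9 and highest for Psmb10 in both genotypes. The log2 ratio differed between mutants and wild type by 0.15 for Psmb8 to Psmb5 (exact two-sided permutation p = 0.514), by -0.14 for Psmb9 to Psmb6 (p = 0.857) and by 0.03 for Psmb10 to Psmb7 (p = 0.714). After adjustment over the 3 ratios each exact permutation p was 0.857, where the smallest p that 4 against 4 allows is 0.0286 before adjustment. The paired genes differ in length, such as 1628 bases for Psmb8 and 899 for Psmb5, and the ratios were not tested with the length and GC offset. With that offset the log2 fold changes were -0.03 for both Psmb8 and Psmb5. They were -0.31 for Psmb9 and -0.09 for Psmb6, and -0.16 for Psmb10 and -0.09 for Psmb7.

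**Figure D3:**
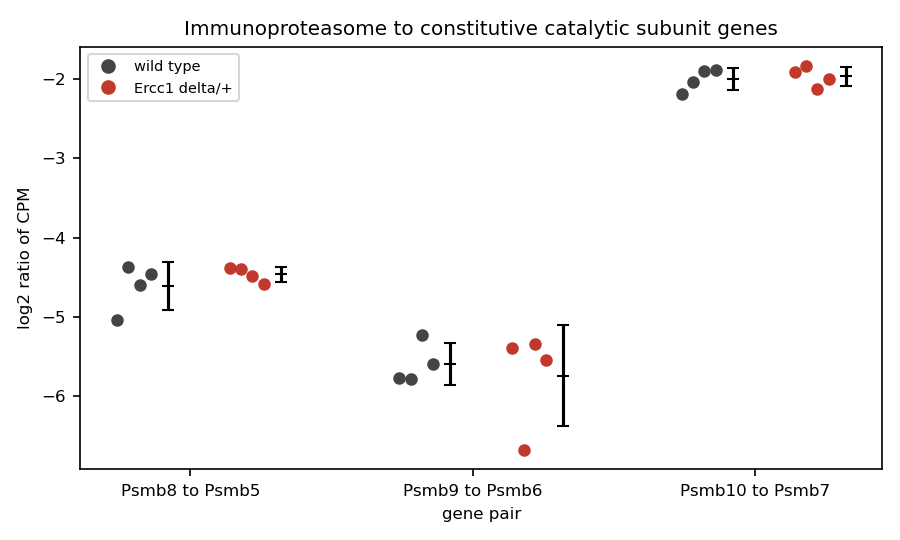
Points are the log2 ratio of CPM between an immunoproteasome catalytic subunit gene and its constitutive counterpart in each library, with mean and SD (n = 4 per group) beside them. Wild type and Ercc1 delta/+ overlap for all 3 gene pairs, and Ercc1 delta/+ replicate 2 is the lowest library for Psmb9 to Psmb6 at -6.68.

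Genes that share the interferon control of the immunoproteasome, and markers of microglia, which express it, overlapped between the groups. Of 12 interferon and antigen presentation genes, 0 had an unadjusted p below 0.05 in either direction (9.65% and 9.08% of all genes were lower and higher). Groups without overlap were seen in 0 of them (6.88% and 5.17% of all genes were lower and higher), and their median was 0.02. With the length and GC offset 1 of the 12 was higher and 0 lower at an unadjusted p below 0.05, against 6.06% and 5.07% of all genes. It was B2m, the light chain of class I molecules (-0.0012 as fitted, 0.35 with the offset, unadjusted p = 0.00176 and adjusted p = 0.224 by the edgeR quasi-likelihood test), which was named after its value was seen. The class I gene H2-K1 had a log2 fold change of 0.12 and Nlrc5, the activator of class I transcription, 0.40, the smallest p-values of the list. Microglia markers (8 of 8 present, 4 negative and 4 positive) summed to 350.2 to 414 CPM in the mutants and 309 to 437 CPM in wild type.

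The 19S base, which holds the ATPase ring that unfolds substrates, had the median closest to 0 of all roles as fitted. All 9 genes were negative, with a median of -0.09 (-0.02 with the length and GC offset). At an unadjusted p of 0.05, where 9.65% of all genes were lower, 1 base gene was lower. That gene was Psmc6, an ATPase subunit, at 52.0, 59.1, 52.2 and 51.5 CPM in Ercc1 delta/+ replicates 1 to 4 and 63.6, 67.4, 69.4 and 62.2 CPM in wild type replicates 1 to 4. Psmc6 was the only base gene whose groups did not overlap (log2 fold change -0.29, SE 0.07, adjusted p = 0.0871), where 6.88% of all genes tested were lower without overlap. With the length and GC offset the log2 fold change of Psmc6 was -0.06 (unadjusted p = 0.464). The other ATPase genes had values between -0.14 (Psmc5) and -0.07 (Psmc3). Psmc1, next by p-value, stood at 96.2, 122, 111 and 116 CPM in Ercc1 delta/+ and 123, 118, 129 and 115 CPM in wild type, where mutant replicates 1 and 3 lay below all wild type libraries and replicates 2 and 4 among them (log2 fold change -0.13, SE 0.08, adjusted p = 0.427). Psmd4 encodes a ubiquitin receptor of the base. It held 80.6, 95.8, 89.5 and 88.6 CPM in Ercc1 delta/+ and 96.8, 93.8, 95.4 and 93.9 CPM in wild type, with replicate 2 of the mutants inside the wild type range (log2 fold change -0.10, SE 0.06, adjusted p = 0.429). For the large scaffold subunit genes the values were -0.07 (SE 0.06, Psmd1) and -0.0057 (SE 0.06, Psmd2).

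In the lid, which carries the deubiquitinase that strips ubiquitin from substrates, values were mixed. Of 8 genes 6 were negative and 2 positive (median -0.16), and 4 were lower at an unadjusted p below 0.05, each without overlap between groups. Over all genes tested 9.65% were lower at that p and 6.88% were lower without overlap. With the length and GC offset the lid median was -0.05. With it 2 lid genes were lower at that p, against 5.07% of all genes. Psmd14, the deubiquitinase gene, stood at 42.2, 46.1, 44.1 and 39.4 CPM in Ercc1 delta/+ replicates 1 to 4 and 52.9, 58.8, 52.9 and 52.6 CPM in wild type replicates 1 to 4. The highest mutant library was well below the lowest wild type library (log2 fold change -0.34, SE 0.07, adjusted p = 0.0670). Psmd6, a structural lid subunit, held 50.3, 53.3, 54.7 and 51.9 CPM in Ercc1 delta/+ and 61.0, 59.0, 62.7 and 61.7 CPM in wild type, with the same separation (log2 fold change -0.22, SE 0.05, adjusted p = 0.0916). Psmd13, another structural subunit, was at 49.1, 51.3, 52.5 and 53.4 CPM in Ercc1 delta/+ and 60.9, 57.7, 62.0 and 58.2 CPM in wild type. Its groups were separate as well (log2 fold change -0.21, SE 0.06, adjusted p = 0.102). Psmd12 was the remaining gene of the 4 (-0.18, SE 0.07). Psmd8 and Psmd7 had values of -0.14 and -0.09. Psmd11, whose product was linked to raised proteasome activity, and Psmd3 were positive at 0.09 (SE 0.07) and 0.04 (SE 0.06), and neither passed the test.

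Values of the alternative caps and regulators were mixed, with 3 of 5 genes negative and lower at an unadjusted p below 0.05. Over all genes tested 9.65% were lower at that p. With the length and GC offset 1 of the 5, Psmf1, was lower at that p, against 5.07% of all genes. The median was -0.18 both as fitted and with the offset. Psme1 and Psme2 encode the subunits of the PA28 cap, which opens the core without ATP and is induced by interferon. Psme1 stood at 21.4, 20.4, 24.3 and 23.6 CPM in Ercc1 delta/+ replicates 1 to 4 and 29.1, 25.0, 26.4 and 33.8 CPM in wild type replicates 1 to 4. All mutant libraries were below wild type (log2 fold change -0.35, SE 0.11, adjusted p = 0.139). Psme2 held 9.33, 10.4, 12.9 and 10.9 CPM in Ercc1 delta/+ and 12.7, 14.1, 14.4 and 14.8 CPM in wild type, where mutant replicate 3 lay just above wild type replicate 1 (log2 fold change -0.36, SE 0.11, adjusted p = 0.142). A near-identical gene, Psme2b, shares its sequence, so its counts are uncertain. Psmf1 encodes a regulator first described as an inhibitor of the core. At 31.0, 34.7, 33.1 and 31.8 CPM in Ercc1 delta/+ and 37.8, 36.5, 36.2 and 37.8 CPM in wild type its groups did not overlap (log2 fold change -0.18, SE 0.06, adjusted p = 0.159). Psme4 encodes PA200, a single-chain cap. It was at 57.5, 54.3, 57.9 and 55.2 CPM in Ercc1 delta/+ and 51.9, 46.9, 54.4 and 51.7 CPM in wild type, the most positive value among the members (log2 fold change 0.13, SE 0.06, adjusted p = 0.287), with overlap at mutant replicate 2 and wild type replicate 3. Psme3, the nuclear cap PA28 gamma, had a value of 0.02 (SE 0.05).

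The assembly chaperone genes were all negative as fitted (7 of 7, median -0.17), with 2 below an unadjusted p of 0.05 and 3 without overlap. Over all genes tested 9.65% were lower at that p and 6.88% were lower without overlap. With the length and GC offset described below the median was -0.01, with 5 genes negative and 2 positive. With it 0 were lower at an unadjusted p below 0.05, against 5.07% of all genes. Psmd10 encodes gankyrin, a chaperone of the base that is also an oncoprotein. It stood at 10.8, 12.2, 12.2 and 12.2 CPM in Ercc1 delta/+ replicates 1 to 4 and 15.1, 16.2, 14.0 and 15.7 CPM in wild type replicates 1 to 4. All mutants were lower than all wild type libraries (log2 fold change -0.36, SE 0.09, adjusted p = 0.0875). The other base chaperone genes were near 0, Psmd5 at -0.03 (SE 0.07) and Psmd9 at -0.0058 (SE 0.08). Psmg1 and Psmg2 encode the heterodimer that builds the alpha ring. Psmg1 was at 9.37, 10.2, 11.2 and 10.2 CPM in Ercc1 delta/+ and 12.3, 11.8, 11.4 and 11.7 CPM in wild type and its groups were separate by a small gap (log2 fold change -0.20, SE 0.09, adjusted p = 0.260). Psmg2 was at 14.1, 13.5, 13.7 and 15.1 CPM in Ercc1 delta/+ and 16.2, 15.5, 16.7 and 15.2 CPM in wild type, separate by a smaller gap (log2 fold change -0.17, SE 0.08, adjusted p = 0.270). Psmg3 and Psmg4, the second pair, had values of -0.14 (SE 0.09) and -0.40 (SE 0.19). Pomp, the maturation factor that joins the beta ring, is outside the symbol rule and had a value of -0.30 (SE 0.11, adjusted p = 0.185). The 2 members that are not proteasome genes were Psmc3ip, a meiotic recombination factor gene at 6.50, 4.69, 7.01 and 6.08 CPM in Ercc1 delta/+ and 6.97, 7.66, 6.68 and 6.75 CPM in wild type (-0.20, SE 0.14), and Psme3ip1 at 38.3, 41.4, 38.9 and 42.3 CPM in Ercc1 delta/+ and 43.1, 45.2, 43.3 and 39.6 CPM in wild type (-0.09, SE 0.07). Their groups overlapped.

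Levels between genes can be compared only per transcript length. In wild type, in CPM per kilobase, the highest member was the ATPase gene Psmc5 at 129 ± 6.15, followed by Psmb7 at 95.7 ± 4.52, Psmb4 at 89.4 ± 2.60 and Psmb6 at 82.2 ± 3.89 (SD, n = 4). The mean ± SD of Psmb7 and Psmb4 overlapped, as did those of Psmb6 and Psmb5 (79.5 ± 4.44), while Psmc5 stood clear of them. Overlap of SD leaves aside that both genes were measured in the same libraries, and the order within each pair was not tested. The constitutive beta ring ranged from 48.7 to 95.7 and the base from 29.4 to 129. The alpha ring ran from 16.3 (Psma2) to 72.4 (Psma7), and the lid from 13.9 (Psmd11) to 64.9 (Psmd3). Genes outside the standard particle covered a wide range. Psme3 stood at 42.0 ± 1.41, Psme1 at 25.7 ± 3.48 and Psmb10 at 21.2 ± 2.53, above standard subunits such as Psmd11 and Psma2. Assembly chaperones ran from 7.10 to 15.0, Psme4 reached 7.89 ± 0.479, and Psmb8 and Psmb9 stood at 1.77 ± 0.344 and 0.962 ± 0.234. Per-length levels of Psma2 and Psma3 rest on annotated transcripts of 2911 and 2846 bases, long for this ring, whose other tested members measure 914 to 1239 bases. If shorter forms dominate, these levels are too low. The length and GC offset used the same lengths, so the offset values of Psma2 and Psma3 carry the same doubt.

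By library, the lower values were shared unevenly. The members together took 0.248%, 0.287%, 0.282% and 0.276% of the counts in mutant replicates 1 to 4 and 0.309%, 0.306%, 0.315% and 0.315% in wild type, without overlap. Ercc1 delta/+ replicate 1 was the lowest of all 8 libraries in 33 of 48 members, and in 39 of 48 the highest library was a wild type one. The same shares over all genes were not computed, so these counts cannot be read as particular to the members. The mean over the alpha ring, as log2 CPM relative to the mean of the 8 libraries, was -0.38, -0.04, -0.11 and -0.20 in mutant replicates 1 to 4 and between 0.16 and 0.20 in wild type, without overlap. For the base the mutants held -0.16, 0.08, -0.07 and -0.06, and wild type ran from -0.0020 to 0.08. Replicate 2 of the mutants therefore lay with wild type for the base but below it for the alpha ring. Without replicate 1 the median over all members was -0.17, 20 of 48 were lower at an unadjusted p of 0.05 and 19 were without overlap, where 7.47% and 8.17% of genes were lower by the same measures.

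**Figure D4:**
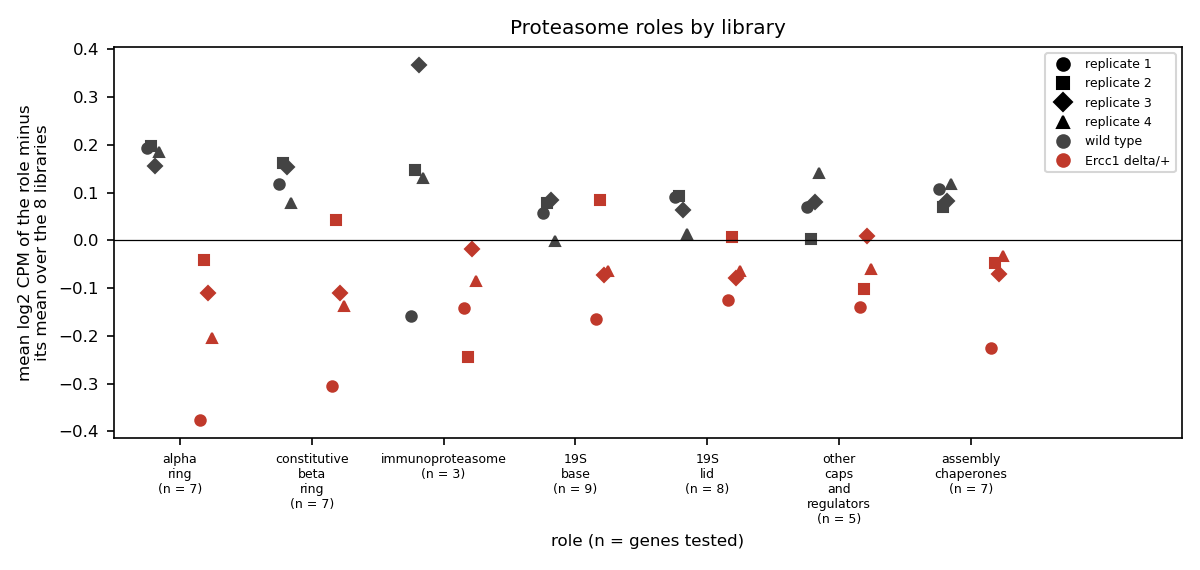
Each symbol is the mean log2 CPM of a role's genes in a library, minus the mean over the 8 libraries; dark grey symbols are wild type, red symbols Ercc1 delta/+, and shapes are replicate numbers that do not pair samples. Groups are apart for the alpha ring, the constitutive beta ring, the lid and the assembly chaperones, and Ercc1 delta/+ replicate 2 lies among wild type for the 19S base at 0.08.

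Transcript length moved with these values. The members had a median length of 1435 bases against 3006 for all genes tested, and 44 of 48 are shorter than that median. Across all genes with a known length the log2 fold change and the length had a Spearman coefficient of 0.395, and across the 48 members it was 0.503. These are descriptions over genes, which share the same libraries. With an offset per library for the trend over length and GC content, the coefficients were 0.0768 and 0.0814. The offset was fitted to these same libraries without regard to genotype, so smaller coefficients follow from the step itself. It cannot tell a technical trend from a lower level that short transcripts share. With the offset the median over the members was -0.04 beside 0.0021 for all genes, and 39 were negative and 9 positive. At an unadjusted p of 0.05, 7 were lower and 0 higher, where 5.07% and 6.06% of all genes were. The 7 were Psma3 (-0.32), Psma5 (-0.18), Psma6 (-0.16), Psma7 (-0.21), Psmd13 (-0.19), Psmd14 (-0.14) and Psmf1 (-0.20). Of these 7 genes 4 belonged to the alpha ring, whose median went from -0.37 to -0.18, with Psma1 at -0.08 and Psma4 at -0.0012. The other caps and regulators had nearly the same median, -0.18, and the immunoproteasome had -0.16. The constitutive beta ring was at -0.09, the lid at -0.05, the base at -0.02 and the assembly chaperones at -0.01. Single genes outside the alpha ring moved as well, such as Psmb6 to -0.09, Psmb4 to -0.11, Psmd6 to -0.05 and Psmd10 to -0.14, and Psmg2 and Psmg3 were positive. When the model instead held a depth term, which marks the 4 shallowest libraries, the median over the members was -0.18 and that of the alpha ring -0.35.

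**Figure D5:**
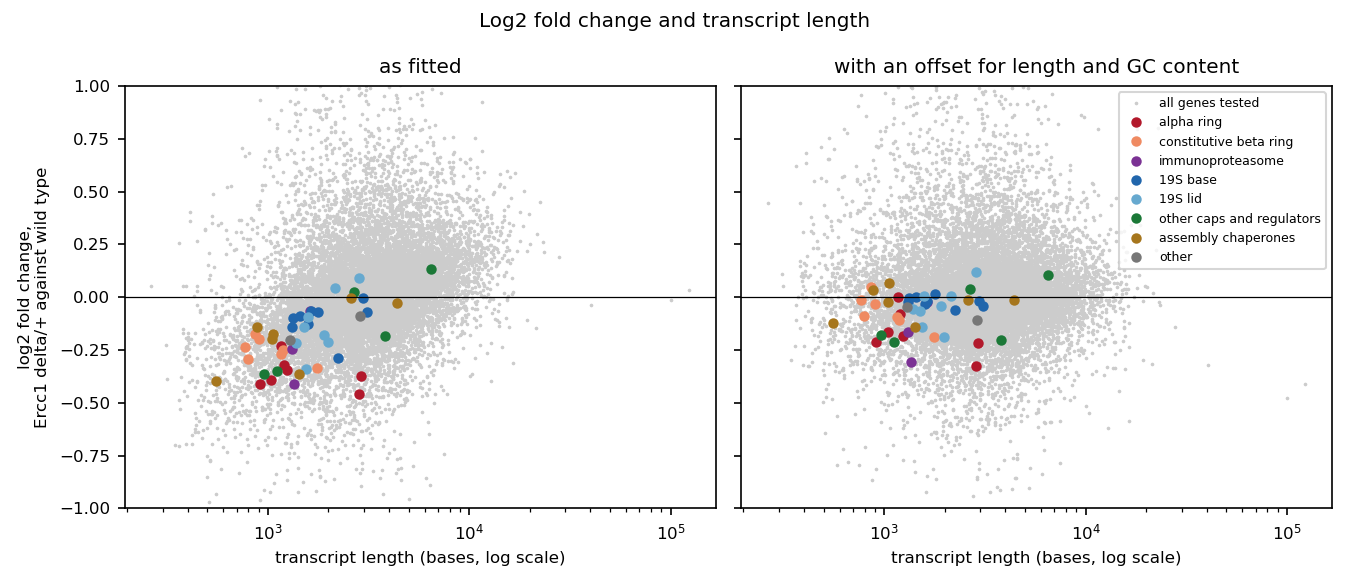
Log2 fold change (vertical axis, cut at 1 and -1, which leaves out 120 genes in the left panel and 111 in the right) is plotted against transcript length in bases on a log axis; grey points are all genes tested and coloured points the proteasome genes by role. At left, as fitted, short transcripts lie lower and the members follow, and at right, with the offset for length and GC content, the members lie closer to 0, with medians of -0.18 for the alpha ring, -0.18 for the other caps and regulators and -0.16 for the immunoproteasome.

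In the authors' deposited table, which compares the same samples row by row, 44 of the 49 members had a negative log2 fold change. There Psma3 (log2 fold change -0.46, adjusted p = 0.0216) and Psma7 (-0.42, adjusted p = 0.0470) passed an adjusted p of 0.05, where 0.843% of rows in the authors' deposited table passed as lower and 1.02% as higher.

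Proteins that work with the proteasome did not share a direction. Of 18 partner genes tested 9 were negative and 9 positive, with a median of 0.01. At an unadjusted p of 0.05, 4 were lower and 2 higher, where 9.65% and 9.08% of all genes were. The quasi-likelihood test called 0. DESeq2 and the exact test called 2 each, of 1052 and 548 genes in all. Partner transcripts are longer than those of the members, with a median of 3515 bases. With the length and GC offset 7 partner genes were negative and 11 positive (median 0.04), beside a member median of -0.04. Sem1, a small lid subunit gene without a Psm symbol, had a value of -0.21 (SE 0.08), or 0.09 once length and GC were offset. The ubiquitin receptor gene Adrm1 stood at -0.03 (SE 0.06). Txnl1, a thioredoxin-like protein bound to the cap, was found at 75.9, 74.2, 81.3 and 79.2 CPM in Ercc1 delta/+ and 93.7, 93.3, 91.6 and 96.8 CPM in wild type. The groups were separate (log2 fold change -0.27, SE 0.05, adjusted p = 0.0648). Of 6 ubiquitin supply genes 4 were negative, led by Rps27a (-0.78, SE 0.14, adjusted p = 0.0566), a fusion of ubiquitin to a ribosomal protein with near-identical copies in the genome, and by Ubb (-0.17, SE 0.07). With the length and GC offset Rps27a was at -0.53 (adjusted p = 0.179) and Ubb at -0.09. The median of the 6 was -0.10 as fitted and -0.05 with the offset. The unfoldase p97 and its cofactors (9 genes, median -0.01) had 0 genes at an unadjusted p below 0.05, with Ufd1 at -0.13 and Faf1 at -0.10.

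Regulators of proteasome transcription had mostly positive values. Of 15 genes 14 were positive (median 0.12), where 50.5% of all genes were negative. At an unadjusted p of 0.05, 4 were higher and 1 lower, against 9.08% and 9.65% of all genes. After adjustment 0 passed. Nfe2l1 encodes the factor that induces the subunit genes, held in the endoplasmic reticulum until it is processed. It was abundant at 474, 510.0, 447 and 458 CPM in Ercc1 delta/+ replicates 1 to 4 and 434, 451, 440.3 and 407 CPM in wild type replicates 1 to 4. The groups overlapped (log2 fold change 0.13, SE 0.07, adjusted p = 0.338). Ddi2, the protease that cleaves and releases this factor, was at 42.9, 47.5, 39.7 and 45.5 CPM in Ercc1 delta/+ and 33.5, 32.7, 35.0 and 36.0 CPM in wild type. Every mutant library was above every wild type library (log2 fold change 0.35, SE 0.07, adjusted p = 0.0660; 0.20 with the offset). Ngly1, which removes its sugars and so completes its activation, was at 22.3, 20.5, 21.6 and 20.7 CPM in Ercc1 delta/+ and 26.2, 28.0, 26.0 and 27.6 CPM in wild type, also without overlap (log2 fold change -0.34, SE 0.07, adjusted p = 0.0642; -0.24 with the offset). Nfya, a subunit of the factor that binds CCAAT boxes, had a value of 0.48 (SE 0.16), and Maf 0.52 (SE 0.20). None of these passed the threshold of the quasi-likelihood test, while DESeq2 and the edgeR exact test each called Ddi2 and Ngly1 (adjusted p = 0.00121 and 0.00180 with DESeq2, 0.0144 and 0.0239 with the exact test). DESeq2 called 1052 genes in all and the exact test 548. Over the settings run, the adjusted p ranged from 0.00121 to 0.387 for Ddi2 and from 0.00180 to 0.241 for Ngly1. The list's transcripts have a median length of 3464 bases, longer than the median of all genes, and with the offset the list median was 0.07. With it 14 genes were still positive. At an unadjusted p of 0.05, 2 were then higher and 1 lower, against 6.06% and 5.07% of all genes.

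Promoter sequence was read for the members because Nfe2l1 acts through the antioxidant response element and NF-Y through the CCAAT box. RefSeq windows of GRCm38.p6, from 250 bases before to 50 after the start, were matched for 41 members. The core of the element, TGACNNNGC on either strand, was found in 6 of 41 members (14.6%) and in 16.5% of the 11935 genes of the table with such a window. The matches are shown to place the element in named genes, 5′ to 3′ on the gene's strand, with the match in capitals. A match is a description of letters and not a binding site.
Psmb5: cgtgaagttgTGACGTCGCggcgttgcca
Psmb6: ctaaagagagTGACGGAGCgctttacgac
Psmc6: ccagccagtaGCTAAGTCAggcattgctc
Psmd9: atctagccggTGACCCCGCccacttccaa
Psmd12: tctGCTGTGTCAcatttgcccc
Psme4: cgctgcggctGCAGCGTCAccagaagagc
They lie at chr14:54618024-54618052 (minus strand), chr11:70525338-70525366, chr14:45329587-45329615, chr5:123228149-123228177, chr11:107479278-107479299 and chr11:30771758-30771786 (plus strand). Their log2 fold changes ran from -0.29 (Psmc6) to 0.13 (Psme4), and 0 of the 7 alpha ring windows held the element.

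The letters CCAAT, on either strand, were found in 15 of 41 members (36.6%) and in 42.8% of all genes with a window. Of the alpha ring genes with a window 5 of 7 held them (Psma1, Psma2, Psma3, Psma6 and Psma7). The constitutive beta ring had 1 of 4, the base 3 of 8 and the lid 1 of 6. Of the remaining roles the immunoproteasome had 1 of 3, other caps and regulators 1 of 5 and assembly chaperones 1 of 6. Both members that are not proteasome genes held them. A link between these letters and the lower values was not tested. The 250 bases before the start of Psma3, the member with the smallest p, and of Psma7 are given with the match in capitals.
Psma3: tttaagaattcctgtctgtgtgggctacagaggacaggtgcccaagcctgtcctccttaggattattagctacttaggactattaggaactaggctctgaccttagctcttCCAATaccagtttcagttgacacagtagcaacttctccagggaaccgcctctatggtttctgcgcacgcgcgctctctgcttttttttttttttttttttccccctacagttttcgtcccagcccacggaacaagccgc
Psma7: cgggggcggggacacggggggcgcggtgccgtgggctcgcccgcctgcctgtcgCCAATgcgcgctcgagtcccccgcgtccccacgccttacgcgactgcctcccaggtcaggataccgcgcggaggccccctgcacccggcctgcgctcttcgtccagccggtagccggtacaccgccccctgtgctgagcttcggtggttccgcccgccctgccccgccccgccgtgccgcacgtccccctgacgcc
They are at chr12:70974373-70974622 on the plus strand and chr2:180042465-180042714 on the minus strand of GRCm38.p6. The core of the interferon-stimulated response element, on either strand, was in 5 of 41 members (12.2%) and in 3.6% of all genes with a window. These 5 were Psmb3, Psmd4, Psmd9, Psmg4 and, as the only one known for induction by interferon, Psme1 of the PA28 cap, and 0 of the 3 immunoproteasome genes held it. Psmb8 held the palindrome TTCNNNGAA that STAT factors bind, which was in 3 of 41 members (7.3%) and 8.2% of genes. The windows of Psme1 and Psmb8 are shown as genes induced by interferon, with the match in capitals.
Psme1: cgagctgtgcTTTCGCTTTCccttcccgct
Psmb8: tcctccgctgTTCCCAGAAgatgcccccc
They lie at chr14:55578493-55578522 and chr17:34198088-34198116, both on the plus strand.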

How the data were processed

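Messenger RNA was sequenced from 8 samples, 4 Ercc1 delta/+ and 4 wild type. The poly(A) fraction was taken from RNA that passed a quality limit, and the pooled barcoded libraries shared a lane, per the labels. The submitters' processing notes name TopHat 1.3.1, edgeR and the build mm9; how reads were counted is not given in the sources used here. The authors deposited raw counts for 19931 RefSeq transcript rows, with their own log2 fold change and p-value and adjusted p-value per row.

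Rows were named through RefSeq (GRCm38.p6) and GENCODE M21, which matched 19456 rows; 475 kept their identifier. These references served for names, transcript length, GC content and promoter sequence. The row of highest total stood for a gene, and 152 genes whose counts equalled those of another in all libraries were merged. No pair of replicates agreed within sampling noise (lowest chi-square over degrees of freedom 11.9). At these depths 3 counts equal 0.0960 to 0.164 CPM, counting error only. Genotypes were compared with edgeR 4.0.16 (quasi-likelihood, R 4.3.3, TMM, filterByExpr, 15074 genes, Benjamini-Hochberg, threshold 0.05, two-sided); SE is the estimate over the root of F. Log2 CPM used a prior count of 2. The offset is a lowess (span 0.3) per library over length, then GC. Tests were tried on simulated data. DESeq2 1.42.0 and limma 3.58.1 were alternatives.

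Members, roles and lists were chosen with earlier results of these data known, so no p was adjusted over the members alone. Values by library are given for the 3 members of smallest p in each role, the catalytic subunits, Psme1, Psme2 and Psme4; outside them the text names Ercc1, Pomp, Adrm1, Sem1, Nfe2l1 and up to 4 genes of each list with the smallest p.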

Additional observations from a re-analysis of the deposited data

Results flagged for a closer look

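Single libraries stood apart from the other 3 of their group, by a gap over range above the 95% limit for 4 samples, in 7 of 130 groups examined (65 genes, each in both genotypes); chance flags about 1 in 20 groups. Psma1 was highest in wild type replicate 2 at 68.7 CPM, against 63.0 to 63.7 CPM in the others of that group. Psma3 was lowest in Ercc1 delta/+ replicate 1 at 30.5 CPM, against 36.2 to 36.9 CPM in the others of that group. Psmc4 was lowest in wild type replicate 4 at 74.2 CPM, against 83.2 to 84.4 CPM in the others of that group. Psmc6 was highest in Ercc1 delta/+ replicate 2 at 59.1 CPM, against 51.5 to 52.2 CPM in the others of that group. Psmd10 was lowest in Ercc1 delta/+ replicate 1 at 10.8 CPM, against 12.2 CPM in the others of that group. Psmd14 was highest in wild type replicate 2 at 58.8 CPM, against 52.6 to 52.9 CPM in the others of that group. Psmd8 was highest in Ercc1 delta/+ replicate 2 at 88.7 CPM, against 73.1 to 75.4 CPM in the others of that group. In Psma3 and Psmd10 the library that stood apart, Ercc1 delta/+ replicate 1, is the one that was lowest in 33 of 48 members. The share of all genes with that library lowest was not computed.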

How the results depend on the processing

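The member calls depended on the tool. The 0 members past the threshold became 14 with DESeq2, 7 with the edgeR exact test and 1 (Psma3) with limma-voom, upper-quartile scaling or the stricter filter, and leaving out single libraries gave 0 to 7. Over all genes the count of 7 became 1052 with DESeq2, 548 with the exact test, 77 with upper-quartile scaling, 66 with the stricter filter, 52 with limma-voom, 33 with RLE scaling, 4 with every transcript as its own row, 1 with the length and GC offset, 1 with the depth term and 0 with the replicate block; leaving out single libraries gave 0 to 310. The cause of these shifts was not tested. The median over the members was -0.044 with the length and GC offset, and between -0.22 and -0.17 without single libraries. Of 48 members 38 kept their sign in every setting run. With the offset, positive values were seen for Psmb2 (0.049), Psmc2 (0.016), Psmd7 (0.0056), Psmg2 (0.065), Psmg3 (0.032) and, outside the members, Sem1 (0.095). Psmd2 was at 0.00052 with RLE scaling and 0.0011 with DESeq2, and Psmd9 at 0.00095, 0.0034 and, with the depth term, 0.050. Without single libraries, Psmb8 ran from -0.19 to 0.028, Psmd2 from -0.025 to 0.023, Psmd3 from -0.00057 to 0.068, Psmd5 from -0.081 to 0.0084 and Psmd9 from -0.061 to 0.041, and the log2 ratio difference from -0.28 to 0.17 for Psmb9 to Psmb6, -0.027 to 0.087 for Psmb10 to Psmb7 and 0.0071 to 0.23 for Psmb8 to Psmb5.

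Replicate numbers did not pair the samples: correlations of same-numbered deviations were -0.268, 0.167, -0.123 and 0.26. Between samples of different numbers they ran from -0.521 (Ercc1 delta/+ replicate 3 with wild type replicate 2) to 0.493 (Ercc1 delta/+ replicate 1 with wild type replicate 2). What such samples share was not tested. With the replicate block, 0 members were called and the median was -0.20. The count over all genes was highest without Ercc1 delta/+ replicate 2 and 0 without its replicate 4. At 0.509 to 1.77 CPM, Psmb9 was the tested member closest to the level of 3 counts.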
